A study of Mus musculus with 18 samples.

Results

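This comparison asked what indole-3-carboxaldehyde (ICA) did to gene expression in the ileum of mice that received a marrow transplant without donor T cells. It set the 5 arrays of marrow-only mice given ICA against the 4 arrays of marrow-only mice given vehicle, 9 of the 18 arrays of the series, with members taken from the sample titles alone. Every array carried RNA from 1 mouse. The recipients were B10.BR mice and the donors C57Bl/6 mice, a pair mismatched at the H2 locus. All recipients were 8 to 12 weeks old at transplant and had been given 11 Gy of whole-body irradiation the day before it. The marrow-only mice received 5000000 T cell depleted bone marrow cells (TCD-BM). They were then gavaged daily with ICA at 150 mg/kg or with the vehicle, a mixture of 40% PEG400, 20% DMSO and 2% citric acid, and the ileum was taken at day 21. The other 9 arrays came from mice that had also received 2000000 T cells and developed graft-versus-host disease (GvHD), 5 with ICA and 4 with vehicle. Marrow-only mice are the transplant controls of that model, so both groups compared here shared the irradiation, the foreign marrow and the gavage, and neither was an untreated mouse.

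ICA is an indole that gut bacteria make from tryptophan, and it binds the aryl hydrocarbon receptor (AhR), a ligand-activated transcription factor. AhR pairs with ARNT and induces genes such as Cyp1a1, and in the gut it is known for maintaining intraepithelial and innate lymphoid cells. The villus of the small intestine is covered with absorptive enterocytes, whose brush border carries peptidases, disaccharidases and transporters, and whose gene expression changes from duodenum to colon. The epithelium also runs a circadian clock, in which CLOCK and ARNTL drive the period, cryptochrome and REV-ERB genes, and REV-ERB proteins in turn repress Arntl.

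A single gene passed the test. Nr1d1, which encodes the clock repressor REV-ERB alpha, fell 2.23-fold under ICA, and it was the only one of 22180 genes (0.00451%) with an adjusted p under 0.05. Around it, 1669 genes (7.52%) had an unadjusted p under 0.05, of which 940 (4.24% of all genes) were higher and 729 (3.29%) lower under ICA. The lower ones included genes of the absorptive villus and of drug metabolism, and the higher ones included genes of T cells and of cholesterol synthesis. These groups differed in the means, but no gene of theirs passed the test, and the 5 ICA mice did not resemble each other in most of them. The median difference over all genes was 0.01 on the log2 scale. All values below are deposited signals on a log2 scale, so that a difference of 1 is a change of 2-fold, and differences are ICA minus vehicle.

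The tissue had the marks of ileum in every mouse. Fabp6, the ileal bile acid binding protein, lay between 11.81 and 12.60 in the 9 mice, and Slc10a2, the ileal bile acid transporter, between 10.28 and 11.08. Markers of other gut segments varied between single mice. ICA mouse 1 had a signal of 10.06 for Lct, the lactase of the more proximal small intestine, against 5.93 to 6.56 in the other ICA mice and 5.84 to 7.00 in the vehicle mice. It also had the highest Gata4, a transcription factor of the proximal small intestine, at 7.74 against 6.23 to 6.92 in the other 8 mice. ICA mouse 3 had a signal of 12.04 for Car1, a carbonic anhydrase of the colon, against 4.75 to 6.45 in the other 8 mice, and the highest Aqp8, a colonic water channel, at 7.21. Mean signal over the 12 proximal genes was 8.17 in ICA mouse 1 and 7.08 to 7.75 in the others, and over the 8 colon genes 8.53 in ICA mouse 3 and 7.31 to 7.63 in the others. The proximal list includes Cubn, which encodes a receptor of the ileum, so the mean of that list does not mark the proximal segment alone. Lct and the comparison of single mice were picked after their values had been seen. Because these were whole pieces of tissue, fewer cells of a type and less RNA per cell cannot be told apart.

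Nr1d1 was lower in every ICA mouse than in any vehicle mouse. Its signal was 9.30, 9.05, 8.54, 9.14 and 8.60 in ICA mice 1 to 5, and 10.31, 9.80, 10.53 and 9.68 in vehicle mice 1 to 4. The means were 8.92 ± 0.34 (SD, n = 5) and 10.08 ± 0.41 (SD, n = 4), and the difference was -1.16 ± 0.16 (SE), with a 95% interval from -1.49 to -0.82 and an adjusted p of 0.0132 (limma, Benjamini-Hochberg). The gap between the groups was narrower than the range within either of them. The SE, interval and p use a spread estimated from all 18 arrays, T cell mice included. When only the 9 marrow-only arrays were fitted the adjusted p was 0.518, so the call depended on the T cell arrays. Its margin was also small: the adjusted p was 0.0615 without ICA mouse 5, 0.0711 without vehicle mouse 1 and 0.0849 without vehicle mouse 3.

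Of the 18 clock genes measured, 4 were lower and 3 higher at an unadjusted p under 0.05, against 3.29% and 4.24% of all genes. Without ICA mouse 1 the lower ones numbered 7 (5.56% of all genes), and without ICA mouse 3 or without vehicle mouse 3 they numbered 3 (2.07% and 2.30%). Nr1d2, which encodes REV-ERB beta, read 8.28, 7.82, 7.66, 8.06 and 7.81 under ICA and 8.55, 8.19, 8.82 and 8.17 under vehicle. Its difference was -0.50 ± 0.14 (SE, adjusted p 0.561), and ICA mouse 1 overlapped the vehicle mice. Per3, a period gene, read 6.59, 6.64, 6.40, 6.65 and 6.70 under ICA and 7.08, 6.86, 7.24 and 6.80 under vehicle, without overlap and with a difference of -0.39 ± 0.11 (adjusted p 0.59). Dbp, a clock output factor that binds D-boxes, had a difference of -0.33 ± 0.14. In the other direction lay Per1 at 0.48 ± 0.17, Cry1, a cryptochrome, at 0.24 ± 0.10, and Bhlhe40, a further repressor of the clock, at 0.26 ± 0.10, each with overlapping groups. The activators Arntl (0.08 ± 0.12) and Clock (-0.15 ± 0.09) did not reach an unadjusted p under 0.05. Vehicle mice 1 and 3 had the highest signals of their group in Nr1d1, Nr1d2, Per3 and Dbp alike, so these genes also varied together among mice of 1 group. Clock transcripts cycle over the day, and the hour at which each ileum was taken is not given in the sources used here.

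**Figure D1:**
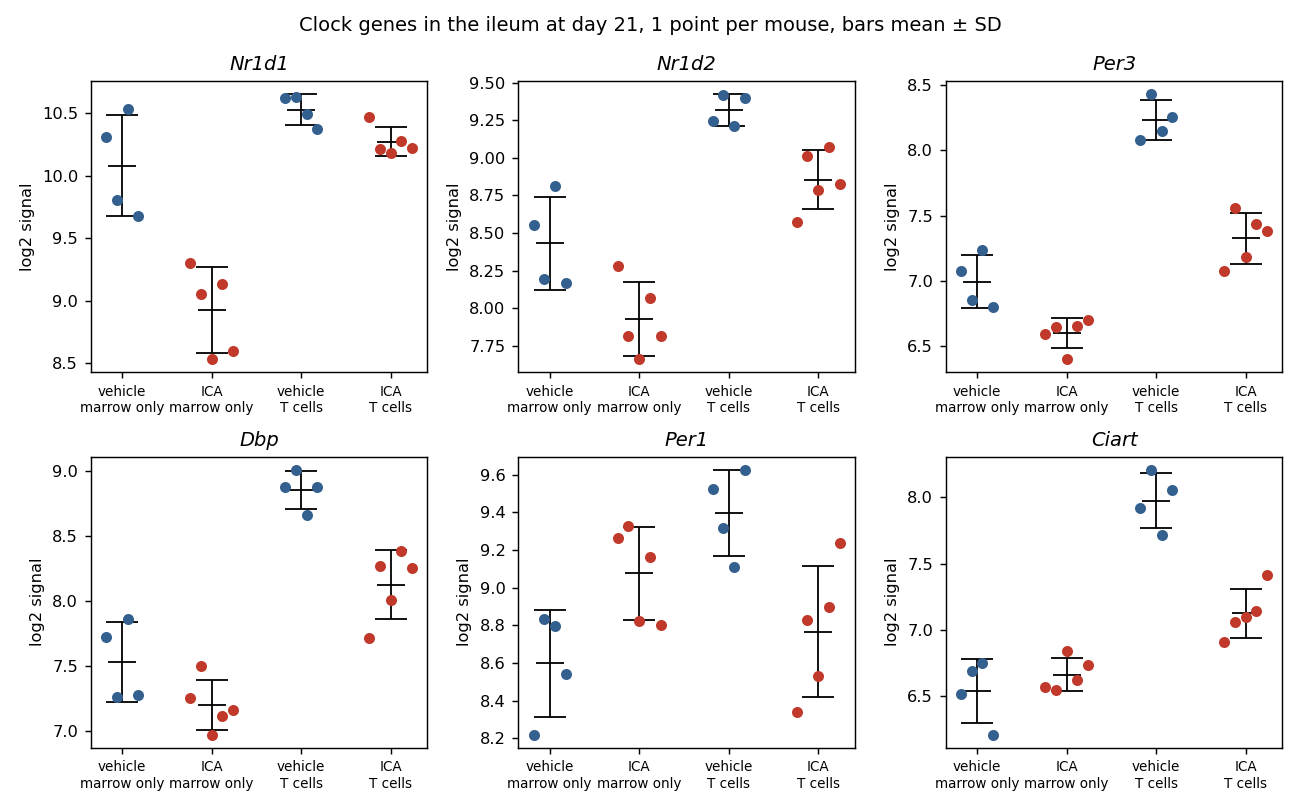
Log2 signal of 6 clock genes in the ileum at day 21, with 1 point per mouse, group means and SD, for marrow-only and T cell mice given vehicle (blue) or ICA (red). Nr1d1 and Per3 do not overlap between the marrow-only groups, and Ciart overlaps between them but not between the T cell groups.

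The 3 lower clock genes with the smallest p are shown with the 250 bases before their annotated start, because they were lower together. The sequences are those of RefSeq on GRCm38.p6, all 3 genes had an entry, and all lie on the minus strand, printed 5′ to 3′ of the gene. Capitals mark matches, on either strand, to the E-box CACGTG bound by CLOCK and ARNTL, the AhR element core GCGTG, the ROR element core AGGTCA to which REV-ERB also binds, and the D-box TTATGTAA bound by DBP.
Nr1d1, chr11:98775378-98775627: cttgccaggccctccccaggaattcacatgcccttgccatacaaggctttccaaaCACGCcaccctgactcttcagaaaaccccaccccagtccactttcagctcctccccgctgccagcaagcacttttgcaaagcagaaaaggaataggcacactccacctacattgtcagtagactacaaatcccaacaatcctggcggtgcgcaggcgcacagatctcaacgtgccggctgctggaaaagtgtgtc
Nr1d2, chr14:18239107-18239356: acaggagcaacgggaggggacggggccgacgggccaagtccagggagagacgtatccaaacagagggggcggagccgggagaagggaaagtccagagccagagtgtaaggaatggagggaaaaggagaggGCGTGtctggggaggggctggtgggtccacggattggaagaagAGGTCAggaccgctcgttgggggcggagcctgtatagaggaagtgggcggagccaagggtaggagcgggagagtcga
Per3, chr4:151044666-151044915: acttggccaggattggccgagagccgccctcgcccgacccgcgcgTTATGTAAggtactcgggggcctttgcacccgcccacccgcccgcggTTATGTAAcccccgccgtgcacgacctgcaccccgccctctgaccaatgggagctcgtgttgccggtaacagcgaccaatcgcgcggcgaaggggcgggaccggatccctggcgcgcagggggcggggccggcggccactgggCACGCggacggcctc
Each window held the AhR core, which 28.2% of all 32851 RefSeq promoter windows of this length hold. The window of Per3 held 2 D-boxes, at -205 and -158 from the start, a motif found in 0.819% of windows, and that of Nr1d2 held 1 ROR core at -77, a motif found in 4607 windows. None of the 3 windows held the E-box letters, which 6.02% of windows hold. A match is a run of letters, and binding was not measured.

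The genes of the AhR pathway itself differed little. None of the 9 measured members of that list reached an unadjusted p under 0.05, and their median difference was 0.07. Cyp1a1, the classical AhR target, read 6.17, 5.95, 5.59, 5.97 and 5.92 under ICA and 6.05, 6.21, 6.07 and 5.77 under vehicle. The groups overlapped throughout, with a difference of -0.11 ± 0.11 and a 95% interval from -0.33 to 0.12. Ahr was at 0.12 ± 0.07, the target and feedback repressor Tiparp at 0.21 ± 0.11, and the oxidoreductase gene Nqo1 at 0.21 ± 0.12. In T cell mice Cyp1a1 was higher by 0.45 ± 0.11 under ICA. The test of the difference between the arms gave an unadjusted p of 0.00174 and an adjusted p of 0.677.

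Apart from Nr1d1 no gene came near the threshold, and the next 58 genes shared an adjusted p of 0.561. Among the 15 lower genes with the smallest p, 10 separated the groups without overlap, against a background of 183 genes lower without overlap (0.825%). Among the 15 higher ones 13 did so, against 300 (1.35%), and their differences ran only from 0.27 to 0.64. Genes picked for a small p in this comparison tend to separate its groups, so these counts follow from the choice. The lower genes included Scin, which encodes the actin-severing protein scinderin, at -0.90 ± 0.20. They also included Abcb1a, the drug efflux pump P-glycoprotein, at -0.80 ± 0.20, and Prss23, a serine protease, at -0.71 ± 0.17. Cpt1a, the entry step of fatty acids into mitochondrial oxidation, read 10.70, 10.62, 10.64, 10.69 and 10.38 under ICA and 11.07, 10.80, 11.13 and 10.89 under vehicle. Its groups did not overlap, and the difference was -0.37 ± 0.09 (adjusted p 0.561). Efna1, an ephrin ligand, was at -0.38 ± 0.09 and Ppm1a, a protein phosphatase, at -0.51 ± 0.13. Dcpp1, Sectm1b, Mettl7b, Gm2568, Vmn1r37 and Scarna2 had differences from -0.81 to -0.32, and Vmn1r37, a vomeronasal receptor gene, had signals under 4 on every marrow-only array, near the bottom of the scale.

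The higher genes with small p came from several functions. Ddit4, an inhibitor of the growth kinase mTORC1 that is induced by stress, read 8.51, 8.96, 8.28, 8.56 and 8.28 under ICA and 7.99, 7.87, 7.70 and 7.94 under vehicle. All ICA mice lay above all vehicle mice, with a difference of 0.64 ± 0.15 (adjusted p 0.561). Kcnj2, an inward rectifier potassium channel, was at 0.53 ± 0.12, Id1, an inhibitor of basic helix-loop-helix factors, at 0.58 ± 0.14, and Wtip, a LIM domain protein, at 0.50 ± 0.12. Zfp938, a zinc finger gene, was at 0.64 ± 0.14. Genes of general cell function followed, among them Atp5l of the mitochondrial ATP synthase (0.40 ± 0.10), the chaperone subunit gene Pfdn1 (0.27 ± 0.07), the ubiquitin-like modifier gene Urm1 (0.40 ± 0.10), and Mettl1, a tRNA methyltransferase (0.38 ± 0.09). Hemk1, Zpr1, Eaf1, Ccdc71l, Baiap2 and Tmem79 lay between 0.31 and 0.41.

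Among genes at an unadjusted p under 0.05, the 5 largest negative differences in the means were in genes of the enterocyte and 1 immunoglobulin segment. Cyp3a25, a cytochrome P450, read 6.44, 4.08, 4.54, 5.10 and 5.49 under ICA and 7.85, 7.42, 5.74 and 7.23 under vehicle, a difference of -1.93 ± 0.48 (adjusted p 0.561). Cubn, the cobalamin-intrinsic factor receptor cubilin of the ileum, read 11.91, 9.31, 8.58, 10.86 and 9.59 under ICA and 11.82, 11.49, 12.00 and 11.44 under vehicle, a difference of -1.64 ± 0.41 (adjusted p 0.561). Mme, the peptidase neprilysin, read 10.46, 8.20, 6.26, 9.08 and 7.71 under ICA and 9.77, 10.03, 10.20 and 9.61 under vehicle, a difference of -1.56 ± 0.49 (adjusted p 0.598). In Cubn and Mme, ICA mice 2 to 5 were below every vehicle mouse, while ICA mouse 1 was within the vehicle range or above it. The other large negative differences were those of Cyp2c55, a P450 of the gut, at -1.44 ± 0.66, and of an immunoglobulin kappa segment whose signal ranged from 7.05 to 11.34 among the vehicle mice. The size for Cyp2c55 depended on the probe set, and with all its probe sets averaged its difference was -0.66.

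**Figure D2:**
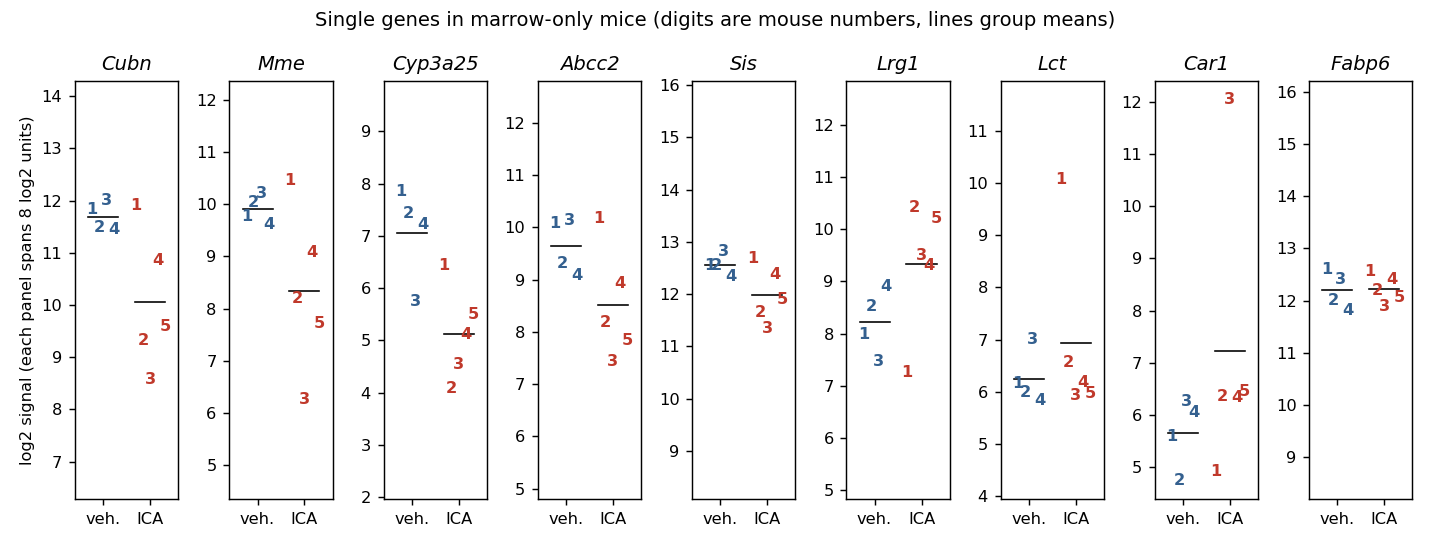
Log2 signal of 9 genes in the marrow-only mice, with each digit a mouse by its number, blue for vehicle and red for ICA, lines at the group means, and 8 log2 units in every panel. In Cubn, Mme, Abcc2 and Sis, ICA mouse 1 lies with the vehicle mice, Lct is high in ICA mouse 1 alone, Car1 in ICA mouse 3 alone, and Fabp6 overlaps between the groups.

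Brush border peptidases and amino acid transporters were the list with the largest share of lower genes. All 19 measured members had a lower mean under ICA, 15 of them at an unadjusted p under 0.05 where 3.29% of all genes were lower at that level, and their median difference was -0.29. None passed the test. Their mean signal was 11.15, 10.49, 10.04, 10.89 and 10.51 in ICA mice 1 to 5 and 11.06, 10.96, 11.10 and 10.96 in vehicle mice 1 to 4. ICA mouse 1 thus had the highest list mean of all 9 mice and ICA mouse 3 the lowest, and ICA mouse 3 was the lowest of the 9 in 17 of the 19 genes. The 18 genes of the list with the larger SD in the ICA group included Slc6a19, the neutral amino acid transporter of the brush border. It read 10.76, 9.88, 9.15, 10.65 and 9.94 under ICA but 10.77, 10.61, 10.68 and 10.63 under vehicle, with SDs of 0.655 and 0.0687. Slc15a1, the di- and tripeptide transporter, had a difference of -0.62 ± 0.25, and Dpp4, dipeptidyl peptidase 4, one of -0.43 ± 0.14. The count moved with single mice: 17 of the 19 were lower at that level without ICA mouse 1 (5.56% of all genes), 6 without ICA mouse 3 (2.07%) and 9 without vehicle mouse 3 (2.30%), and the median ran from -0.36 to -0.19 with any 1 mouse left out. These genes are expressed by the same cells and are not independent measurements.

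In the other absorptive lists too, ICA mouse 1 had the highest list mean of the ICA mice and ICA mouse 4 the next. Of 12 measured genes of carbohydrate digestion, 6 were lower and none higher at an unadjusted p under 0.05, with a median of -0.36. Over all genes 3.29% were lower and 4.24% higher at that level. Sis, sucrase-isomaltase, read 12.68, 11.65, 11.35, 12.38 and 11.90 under ICA and 12.55, 12.54, 12.81 and 12.34 under vehicle, a difference of -0.57 ± 0.18. G6pc, glucose-6-phosphatase, was at -1.10 ± 0.37, Treh, trehalase, at -1.01 ± 0.38, and Slc5a1, the sodium-glucose transporter, at -0.35 ± 0.13. Of 23 measured genes of fat and retinol absorption, 2 were lower at that level, Rbp2, the cellular retinol-binding protein (-0.90 ± 0.33), and Slc27a4, a fatty acid transport protein (-0.46 ± 0.17), and 20 had lower means. Of 12 genes of bile acid handling, 2 were lower at that level, the export pump Abcc2 (-1.14 ± 0.36) and Slc10a2 (-0.32 ± 0.14), while Fabp6 was at 0.02 ± 0.14. The list of xenobiotic metabolism had 7 of 25 members lower at that level and none higher, with a median of -0.24. It includes Abcb1a, Cyp3a25, Cyp2c55 and Cyp3a11, and Cyp3a11 read 7.58, 5.88, 5.17, 5.81 and 6.06 under ICA and 7.64, 7.24, 6.53 and 6.81 under vehicle. Without ICA mouse 1, 9 of the 12 carbohydrate genes, 12 of the 23 fat and retinol genes and 15 of the 25 xenobiotic genes were lower at that level, and without ICA mouse 3 these counts were 5, 3 and 7. Of all genes 5.56% were lower without ICA mouse 1 and 2.07% without ICA mouse 3. ICA mouse 1 was the highest of the ICA mice in 10 of the 12 carbohydrate genes, 18 of the 23 fat and retinol genes and 17 of the 25 xenobiotic genes. The signals of the proximal and colon markers that set ICA mice 1 and 3 apart moved with these lists, and their part in the differences was not tested. The proximal and carbohydrate lists share members, Lct among them, so part of that common movement is built in.

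**Figure D3:**
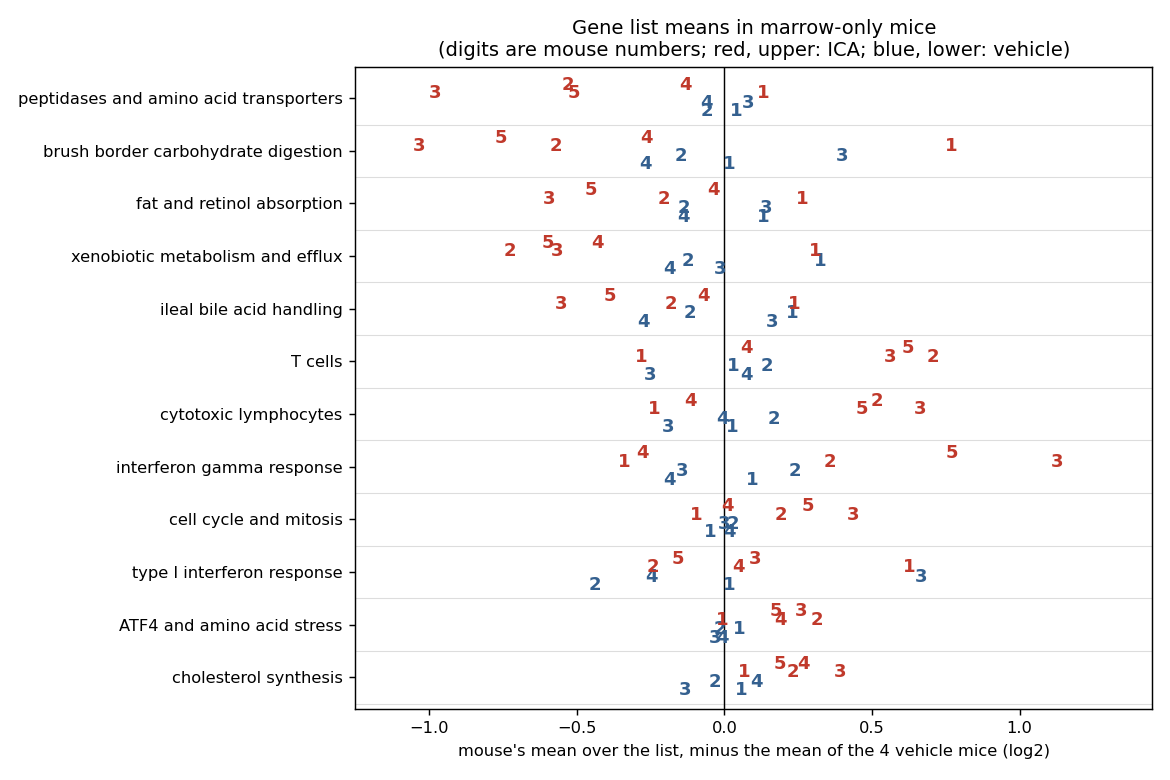
Mean log2 signal of 12 gene lists in each marrow-only mouse, relative to the mean of the 4 vehicle mice, with digits for the mouse numbers, ICA in red above and vehicle in blue below. In the first 5 lists ICA mouse 1 is the highest ICA mouse and ICA mouse 3 or 2 the lowest, and in the T cell and cell cycle lists ICA mouse 1 is the lowest ICA mouse.

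The spread among the mice set the limit of the comparison. The median SD of a gene was 0.159 among the 5 ICA mice and 0.132 among the 4 vehicle mice, and 13839 genes (62.4%) had the larger SD in the ICA group. An SD more than 3 times that of the other group was found for 1936 genes in the ICA mice and for 502 in the vehicle mice. In T cell mice the median SD was 0.164 with ICA and 0.127 with vehicle. The wider spread under ICA was thus not particular to marrow-only mice. In both arms the ICA group had 5 mice and the vehicle group 4, and SDs and their ratios depend on the number of mice. The part of group size in these medians and counts was not tested. With a median SE of 0.11, a gene that passes on its own needs a p of about 2.25e-06, which at that SE corresponds to a difference of 0.70, or 1.63-fold. That SE draws on the spread in all 4 groups of the series, not on the ICA mice alone. Only 25 genes differed at least 2-fold in the means, 3 higher and 22 lower. Of the 22 lower ones 1 was called, and in 17 ICA mouse 1 was within the vehicle range or above it. Their median SD was 1.02 in the ICA group and 0.57 in the vehicle group. Over all genes the root mean square distance from the group mean was 0.24, 0.20, 0.20, 0.15 and 0.16 for ICA mice 1 to 5, and 0.15, 0.15, 0.18 and 0.15 for vehicle mice 1 to 4.

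Leaving out 1 mouse at a time moved the number of called genes far more in 1 case than in the others. Without ICA mouse 1, 119 genes (0.537%) passed the test, 34 higher (0.153%) and 85 lower (0.383%). Without any other single mouse the number was 0 or 1. Of the 85 lower genes, ICA mouse 1 itself was within the vehicle range or above it in 77, and of the 34 higher ones it was within the vehicle range or below it in 28. Of the 119, 114 had an unadjusted p under 0.05 with all mice. A further setting, added after the data were seen, left out vehicle mouse 3 as well, the vehicle mouse farthest from its group. Then 13 genes passed (0.0586%), all of them among the 119: Abcc2, Adcy8, Cubn, Cyp3a11, Cyp3a25, Cyp4v3, Fbp1, Fmo5, Mal, Nr1d1, Ppm1a, Slc5a11 and Wtip, a list fixed by no rule but this setting. The omission of a mouse shows how far the count rests on it, and does not say which count is right.

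**Figure D4:**
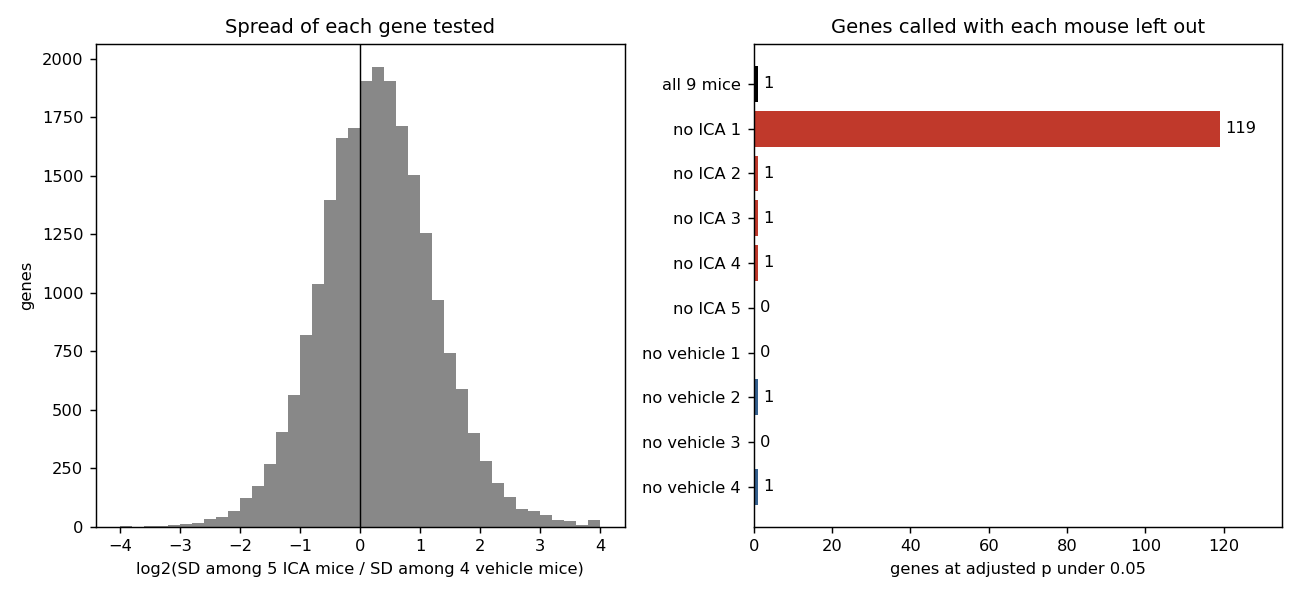
Left, histogram over the genes tested of the log2 ratio of the SD among the 5 ICA mice to the SD among the 4 vehicle mice, with ratios beyond 4 in either direction drawn at 4. Right, the number of genes at an adjusted p under 0.05 with all 9 mice and with each mouse left out, which is 119 without ICA mouse 1 and 0 or 1 in the other cases.

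The 5 lists of carbohydrate digestion, peptidases, fat and retinol absorption, bile acid handling and xenobiotic metabolism had 91 measured members. Of these 91, 14 were among the 85 genes lower without ICA mouse 1, against 0.383% of all genes. None was among the 34 higher ones, which is near the share of 0.153% over all genes. The lower genes included Cubn (-2.10 ± 0.29, adjusted p 0.0049), Mme (-2.09 ± 0.36, 0.0159), Cyp3a25 (-2.25 ± 0.46, 0.0358), Abcc2, Sis, G6pc, Treh, Rbp2, Slc15a1 and Abcb1a. Named here after their values were seen, Enpp7, the alkaline sphingomyelinase of the gut, differed by -2.04 ± 0.41 and Cyp4v3, a fatty acid hydroxylase, by -1.67 ± 0.24. Nr1d2 passed as well (-0.59, adjusted p 0.0473), as did Tph1, the serotonin synthesis enzyme of enterochromaffin cells (-0.47, adjusted p 0.0263). On the higher side were Lrg1, a secreted leucine-rich glycoprotein (1.65, adjusted p 0.0122), Abca13, a lipid transporter (1.26, adjusted p 0.0444), and Fut2, the fucosyltransferase of the gut surface (1.72, adjusted p 0.0409). Lrg1 read 7.25, 10.42, 9.50, 9.31 and 10.21 under ICA and 7.98, 8.52, 7.46 and 8.91 under vehicle, so that ICA mouse 1 was the lowest of the 9 and the other ICA mice the highest. C2cd4b, a further gene among the largest positive differences with all mice (0.99 ± 0.25), lay between 7.95, in ICA mouse 1, and 9.30 under ICA and between 7.12 and 8.02 under vehicle. With all probe sets of C2cd4b averaged, its difference was 0.57. Fut2 and Mal were lowest in ICA mouse 1 too, and vehicle mouse 3 was the lowest vehicle mouse in Lrg1, Fut2 and Mal.

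Genes of T cells had higher means under ICA, with the same mice apart. Of 16 measured T cell genes, 5 were higher and none lower at an unadjusted p under 0.05, against 4.24% of all genes higher, with a median of 0.35 and no gene called. Cd3g, a chain of the T cell receptor complex, read 7.69, 9.13, 9.29, 8.19 and 9.30 under ICA and 7.96, 8.38, 6.93 and 8.15 under vehicle, a difference of 0.86 ± 0.34. ICA mice 2, 3 and 5 exceeded every vehicle mouse, and ICA mice 1 and 4 did not. Cd3e was at 0.49 ± 0.30, Cd28, the costimulatory receptor, at 0.36 ± 0.14, and the receptor segment Trav9d-3 at 0.92 ± 0.35. The mean over the list was 6.37 in ICA mouse 1, 6.73 in ICA mouse 4 and 7.21 to 7.36 in the other ICA mice, against 6.40 to 6.80 under vehicle. ICA mouse 1 had the lowest signal of the 9 mice in 9 of the 16 genes and vehicle mouse 3 in 6. At an unadjusted p under 0.05, 12 of the 16 were higher without ICA mouse 1 (7.1% of all genes), 4 without ICA mouse 3 (2.68%) and none without vehicle mouse 3 (2.74%). These mice received no purified donor T cells, and which T cells gave the signal cannot be read from the arrays.

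Cytotoxic, antigen presentation and interferon gamma genes had mostly higher means under ICA too, and no gene of these lists was called. Of 17 cytotoxic genes 2 were higher at an unadjusted p under 0.05, against 4.24% of all genes, Klrc1, the natural killer receptor subunit NKG2A (0.67 ± 0.24), and Ctsw, cathepsin W (0.68 ± 0.29). The count was 5 without ICA mouse 1 (7.1% of all genes), 1 without ICA mouse 3 (2.68%) and 0 without vehicle mouse 3 (2.74%). Gzmb, granzyme B, read 6.99, 8.56, 9.05, 7.14 and 8.54 under ICA and 7.99, 8.36, 7.01 and 7.82 under vehicle, a difference of 0.26 ± 0.43 that is smaller than the spread in either group. All 12 genes of class I loading and the immunoproteasome had higher means, 4 of them at that level, including Psmb8 (0.40 ± 0.13) and the peptide pump gene Tap2 (0.29 ± 0.12), whose groups did not overlap. Without ICA mouse 1 the count was 6, and without ICA mouse 3 it was 2. In the class I list mean, as in that of the T cell genes, ICA mice 1 (9.68) and 4 (9.63) were below the other ICA mice (9.86 to 10.02). By single genes ICA mouse 1 was the lowest ICA mouse in 1 of the 12, against 14 of the 16 T cell genes. Of 9 class II presentation genes 2 were higher at that level, H2-DMb2, a chain of the peptide exchange factor (0.36 ± 0.17), and H2-Aa, a class II chain (0.32 ± 0.12), and 5 were without ICA mouse 1, 3 without ICA mouse 3 and none without vehicle mouse 3. Of 18 interferon gamma response genes 17 had higher means, with a median of 0.33, and none reached that level. Without ICA mouse 1, 8 of the 18 did (7.1% of all genes), without vehicle mouse 3 1 did, and without ICA mouse 3 none did. Gbp5, a guanylate-binding protein, ranged from 7.13 to 9.04 among the ICA mice. Of 19 macrophage and dendritic cell genes C1qa, a complement chain (0.38 ± 0.16), was higher and Mertk, a receptor for dying cells (-0.44 ± 0.14), lower at that level. The number of higher genes was 9 without ICA mouse 1 (7.1% of all genes), 2 without ICA mouse 3 (2.68%) and 1 without vehicle mouse 3 (2.74%). H2 genes follow the strain of the cells as well as their level, because donor and host differ at that locus and the probes follow 1 reference strain. Of 29 cell cycle genes 28 had higher means with a median of 0.14, and 3 reached that level, against 4.24% of all genes, among them Birc5, survivin (0.41 ± 0.15), and Aurkb, aurora kinase B (0.27 ± 0.12). The number was 11 of the 29 without ICA mouse 1 (7.1% of all genes) and 1 without ICA mouse 3 (2.68%).

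Type I interferon genes were high in 1 mouse of each group. The list mean was 9.70 in ICA mouse 1 and 8.83 to 9.18 in the other ICA mice, and 9.74 in vehicle mouse 3 and 8.64 to 9.09 in the other vehicle mice. Of its 30 genes 1 was higher at an unadjusted p under 0.05, against 4.24% of all genes, the nucleic acid sensor Zbp1 (0.31 ± 0.13), and the median was 0.07. Without vehicle mouse 3, 6 of the 30 were higher at that level (2.74% of all genes) with a median of 0.30, and without ICA mouse 1 the median was -0.10. Isg15, a ubiquitin-like interferon-induced protein, read 8.06, 7.35, 7.10, 7.11 and 6.91 under ICA and 7.22, 6.70, 8.08 and 6.77 under vehicle. Its difference of 0.11 ± 0.27 had no stable sign: it was -0.08 without ICA mouse 1, -0.05 without vehicle mouse 2 and -0.03 without vehicle mouse 4. In T cell mice the same 30 genes had a median difference of 0.76, and 18 of them had an unadjusted p under 0.05 for the difference between the arms, where 6.68% of all genes did.

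Cholesterol synthesis was the list with the largest share of higher genes. All 16 measured members had higher means under ICA, 9 of them at an unadjusted p under 0.05, against 4.24% of all genes higher. None was lower at that level, the median was 0.24 and none was called. Fdps, farnesyl diphosphate synthase, read 9.94, 10.28, 10.72, 10.25 and 10.26 under ICA and 9.89, 9.89, 9.67 and 10.06 under vehicle, a difference of 0.41 ± 0.13. Cyp51, lanosterol demethylase, read 9.23, 9.25, 9.65, 9.58 and 9.33 under ICA and 9.04, 9.07, 8.92 and 9.17 under vehicle, without overlap and with a difference of 0.36 ± 0.13. Dhcr7, which reduces dehydrocholesterol to cholesterol, was at 0.23 ± 0.08. The list mean of ICA mouse 1, 9.46, was within the range of the vehicle mice (9.26 to 9.50), and the other ICA mice lay between 9.58 and 9.78. The number at that level was 9 without ICA mouse 1 (7.1% of all genes), 5 without ICA mouse 3 (2.68%) and 4 without vehicle mouse 3 (2.74%). The median stayed between 0.19 and 0.27 with any 1 mouse left out. In T cell mice the median of the list was -0.29, and 13 of the 16 genes had an unadjusted p under 0.05 for the difference between the arms, where 6.68% of all genes did.

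The counts of stress and secretory genes also depended on single mice. Of 17 ATF4 target genes 3 were higher at an unadjusted p under 0.05, against 4.24% of all genes, Ddit4, Mthfd2, the mitochondrial folate enzyme (0.40 ± 0.12), and Chac1, a glutathione-degrading enzyme (0.49 ± 0.17), with a median of 0.17. That number was 9 of the 17 without ICA mouse 1 (7.1% of all genes), 3 without ICA mouse 3 (2.68%) and 3 without vehicle mouse 3 (2.74%). Of 18 enteroendocrine genes 6 were lower and 1 higher at that level, against 3.29% and 4.24% of all genes, with a median of -0.11. Without ICA mouse 3, or without vehicle mouse 3, 2 were lower at that level (2.07% and 2.30% of all genes). The lower ones included Tph1 (-0.34 ± 0.12), Chga, chromogranin A (-0.37 ± 0.17), and Nts, neurotensin (-0.61 ± 0.28), and the higher one was the tachykinin gene Tac1 (0.58 ± 0.20). Pigr, the receptor that carries IgA across the epithelium, read 11.61, 11.72, 11.67, 11.78 and 11.72 under ICA and 12.03, 12.09, 12.01 and 12.09 under vehicle. It did not overlap and had a narrow spread in both groups, with a difference of -0.36 ± 0.09 (adjusted p 0.561). Clca1, a secreted goblet cell protein, did not overlap either (-0.48 ± 0.15). It was the only one of 13 goblet cell genes at an unadjusted p under 0.05, and Muc2, the main mucin, was at -0.05 ± 0.05.

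Paneth, stem cell and stromal genes gave few or no differences at this precision. None of 11 Paneth genes reached an unadjusted p under 0.05, and Lyz1, their lysozyme, had a 95% interval from -0.39 to 0.31. Of 15 stem cell genes 1 was lower at that level (3.29% of all genes), and Lgr5, the stem cell marker, was at -0.06 ± 0.12. Reg3g, an antimicrobial lectin, was at 0.07 ± 0.14. None of 21 fibroblast and collagen genes, 15 smooth muscle genes or 12 endothelial genes reached it in either direction, though 2 fibroblast genes were lower at that level without ICA mouse 1. The mean over the adipocyte genes ran from 7.60 to 9.35 among the ICA mice and from 8.41 to 9.28 among the vehicle mice, so it varied within both groups. Of 11 mast cell genes 4 had higher and 7 lower means, with a median of -0.08. At that level 1 was lower and none higher, against 3.29% and 4.24% of all genes. The mast cell protease gene Mcpt1 differed between the mice. It read 5.39, 6.44, 8.17, 5.92 and 6.82 under ICA and 7.90, 7.87, 7.36 and 7.58 under vehicle, a difference of -1.13 ± 0.45. Genes that respond to tissue handling moved both ways, with 2 of 24 higher and 2 lower at that level, against 4.24% and 3.29% of all genes. Among them were Fos at 0.55 ± 0.22 and Hspa1b at -0.86 ± 0.29.

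No gene passed the test of a difference between the ICA effect in marrow-only mice and that in T cell mice (0.0% of genes, limma, lowest adjusted p 0.294, with 1482 genes at an unadjusted p under 0.05). Nr1d1 differed by -0.25 ± 0.16 in T cell mice, where its signal was 10.18 to 10.47 under ICA and 10.37 to 10.63 under vehicle, and the 2 effects differed by -0.90 ± 0.23 (unadjusted p 0.000768, adjusted p 0.677). Per3 was at -0.39 here and -0.91 in T cell mice, and Nr1d2 at -0.50 and -0.46. Per1 was at 0.48 here and -0.63 there, and Ciart, a clock repressor gene, was at 0.12 here and -0.85 there, which gave the lowest p of all genes for the difference between arms (1.33e-05). Arntl was at 0.08 here and 0.71 there. Mcpt1 was at -1.13 here and 2.06 there (unadjusted p for the difference 6.03e-05). Both arms had their own vehicle mice, and the arms also differ in GvHD.

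**Figure D5:**
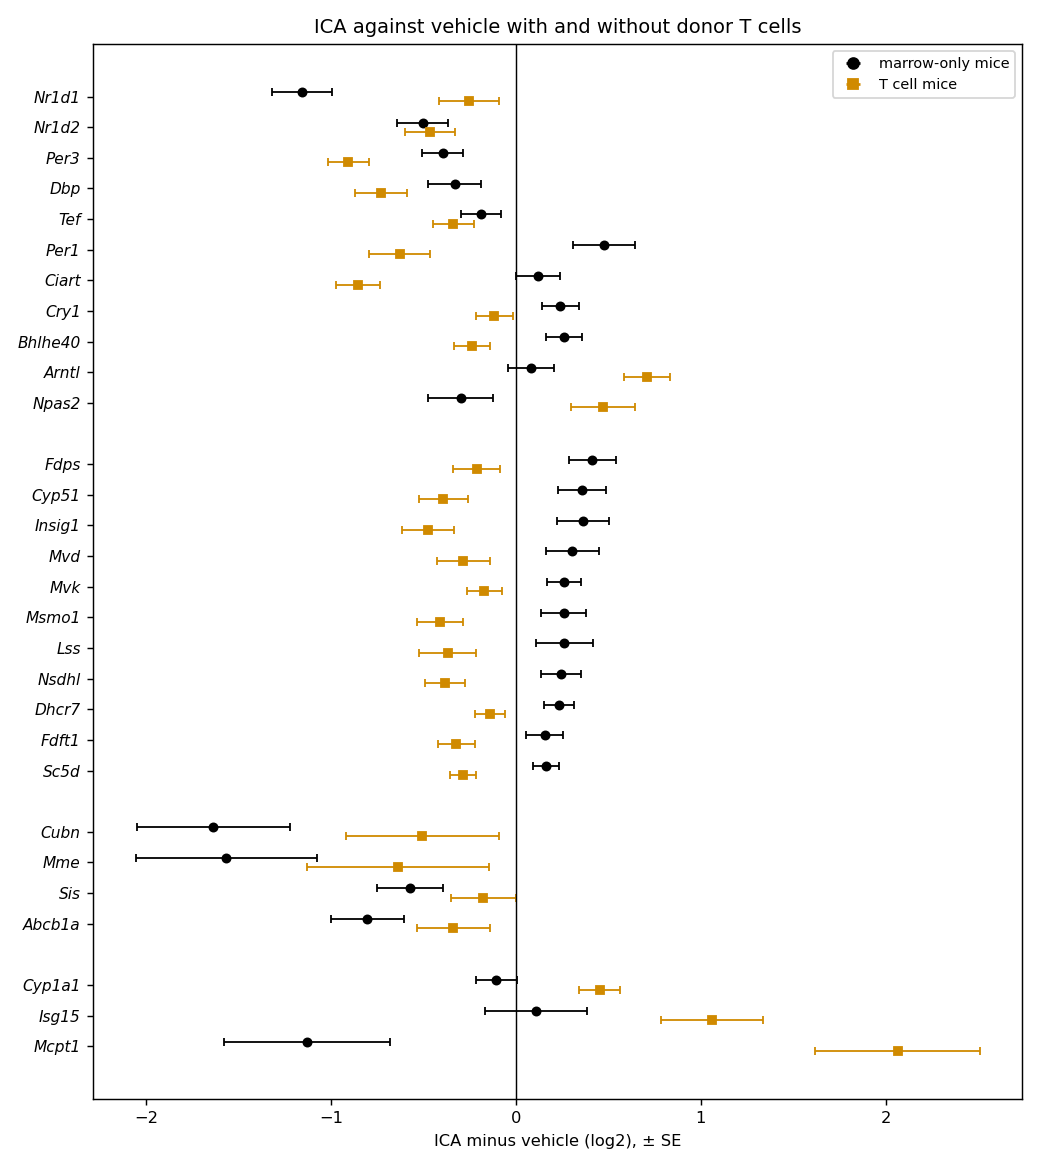
Difference between ICA and vehicle in log2 units with its SE for clock, cholesterol, enterocyte and other genes, in marrow-only mice (black circles) and in T cell mice (orange squares). Nr1d1 lies lower in marrow-only mice, Per3 in T cell mice, the cholesterol genes lie above 0 in marrow-only mice and below 0 in T cell mice, and no difference between the arms passed the test after adjustment.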

How the data were processed

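The arrays were Affymetrix whole-transcript mouse gene arrays, 1 per mouse. Per the submitters' processing notes the authors used Partek, GenomeStudio and RMA, with no version named. No source used here gives the log base, background step or filters. The deposited values were taken as log2, since every column spans the range of log2 scanner signals, and were not normalized or filtered again. Of 41345 probe sets 23521 had 1 gene symbol in the platform annotation, 1814 several and 16010 none. For each of 22180 genes the test used the 1-symbol probe set of highest mean signal on the 18 arrays.

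limma 3.58.1 in R 4.3.3 fitted a mean for each of the 4 groups to all 18 arrays, with a trend in the prior variance (14 residual degrees of freedom and 6.1 from the prior). Tests were two-sided, with Benjamini-Hochberg adjustment over all genes and calls at an adjusted p under 0.05. The fit was tested on simulated data with independent genes and the same SD of a gene in every group. Unequal spread between groups and a single distant mouse were not simulated. The number of arrays limits the precision.

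The 48 gene lists (727 of 806 entries measured) and the rule for named genes were chosen with earlier results of these data known, and no list was tested. The rule takes every called gene, the 15 higher and 15 lower genes of smallest p, the 5 largest differences each way among genes at an unadjusted p under 0.05, the 2 genes of smallest p in each list, and, whatever their values, Muc2, Reg3g, Lyz1, Lgr5, Cd3e, Gzmb, Isg15, Per3, Cyp1a1 and Ahr. Values are given for those a result turns on. The other 52, list picks with 27 higher and 25 lower means, differed by -1.06 to 0.61, and none had an adjusted p under 0.561. An immunoglobulin kappa gene is given without its symbol. Other list members are named as examples. Promoter windows came from RefSeq (GRCm38.p6). Alternatives were other normalizations, filters, probe set rules, priors, array sets and the omission of each mouse. Figures were drawn with matplotlib 3.10.9.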

Additional observations from a re-analysis of the deposited data

Results flagged for a closer look

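In each group of 4 or 5 mice the highest and lowest signal were set against the next one, and 19 gaps were large for the range of their group, in 314 groups of values checked over 157 genes and gene list means. Chance gives such a gap in about 1 of 20 independent groups, so 19 in 314 is near the number that chance gives. That rate is only a guide, because some genes were picked after their values had been seen and the list means are not independent of the genes.

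ICA mouse 1 had 9 of the 19. It was high in Lct (10.06), Gata4 (7.74), Fos (9.18) and Slc5a11, a sodium-coupled inositol transporter (8.66). It was low in Fut2 (7.62), Mal (6.54) and Mthfd2 (7.39). Its mean over the AhR genes (7.29 against 7.15 in the next ICA mouse) and over the genes of xenobiotic metabolism (8.74 against 8.01) was high as well. ICA mouse 3 was high in Car1 (12.04) and in the mean of the colon genes (8.53), and low in the mean of the Paneth cell genes (11.70). ICA mouse 2 was low in Clock (10.30), ICA mouse 5 low in Cpt1a (10.38), and ICA mouse 4 high in Muc2 (13.63). Of the vehicle mice, mouse 3 was high in Slc15a1 (12.24) and in the mean of the adipocyte genes (9.28) and low in that of the macrophage and dendritic cell genes (7.85), and mouse 4 was low in Sectm1b (11.74).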

How the results depend on the processing

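The count of called genes, 1 with all arrays, was 0 with the marrow-only arrays alone, with the replicate block, with all 41345 probe sets tested and with a robust prior. It stayed at 1 under quantile normalization, median centring, both filters on low signal, probe sets averaged per gene, no trend and array weights. It ran from 0 to 119 with each mouse left out, and was 13 without ICA mouse 1 and vehicle mouse 3, a setting added after the data were seen. Genes at an unadjusted p under 0.05 numbered 2530 with all probe sets, and from 1054 (without ICA mouse 3) to 2809 (without ICA mouse 1) with a mouse left out. Genes called for the difference between the arms numbered 0, from 0 to 2 with a mouse left out, and 2 without ICA mouse 1 and vehicle mouse 3. The replicate numbers did not pair the mice: deviations of equal numbers correlated between -0.14 and 0.04, 0 of 4 ICA mice correlated best with the vehicle mouse of the same number, and the block left 1396 genes at an unadjusted p under 0.05. With a mouse left out, small differences took both signs: Isg15 ran from -0.078 to 0.40, Lgr5 from -0.098 to 0.0087, Lct from -0.088 to 0.94, Aqp8 from -0.039 to 0.45, Gata4 from -0.20 to 0.18 and Fabp6 from -0.11 to 0.15. Gata4 was also -0.030 with array weights and -0.24 without ICA mouse 1 and vehicle mouse 3. The cause was not tested. Signal over background is not part of the deposited table, so probe sets near background could not be marked.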
